A study of Mus musculus with 15 samples.

Results

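The genes described here kept their Sox9-GFP+ level on one side of every other population sorted from the mouse pancreas, at each of 3 developmental stages. Of 16883 genes that passed a filter on low signal, 1626 (9.63%) had all 3 Sox9-GFP+ group means above both other group means, and 1092 (6.47%) had all 3 below. These 2718 genes are the members, and they were chosen by that ordering of group means alone. The balance of the sides depends on the scaling, since quantile normalization gave 1373 higher and 1641 lower genes and centring each array on its median gave 1290 and 1800. Without the filter the ordering held for 3161 of the 19938 genes on the array that have a probe set naming 1 gene. The study used 15 arrays in 5 groups of 3, and all 5 groups enter here. Sox9-EGFP males, or Ngn3-EGFP males for a single group, were mated to wild-type CD1 females, and brightly fluorescent pancreatic cells were sorted by flow cytometry after several animals had been pooled. The 3 Sox9-GFP+ groups (9 arrays) came from Sox9-EGFP embryos at e10.5 and e15.5 and from Sox9-EGFP pups at p23, postnatal day 23. The other 2 groups (6 arrays) were Ngn3-GFP+ cells of Ngn3-EGFP embryos at e15.5 and GFP- cells of Sox9-EGFP pancreas at p23. The e10.5 cells therefore had no comparison group of their own age, the comparison group at e15.5 differed in transgene, and that at p23 was defined only by lack of fluorescence. Per the design text, the Ngn3-GFP+ cells stand for endocrine cells newly formed in the embryo and the GFP- cells for mature acinar and endocrine cells.

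SOX9 is a transcription factor that the pancreatic bud epithelium carries from its first outgrowth. In the embryo it marks multipotent progenitors that depend on FGF10 from the mesenchyme and on Notch signalling. Cells that switch on Neurog3, which encodes the endocrine fate factor NGN3, lose SOX9, whereas duct cells keep it into adult life. The populations labelled Sox9-GFP+ thus span early progenitors, the cells of the embryonic trunk epithelium and the ducts of the weaning animal, and the question put to the arrays is which other transcripts stay with SOX9 across those 3 states.

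Every level below is log2(intensity + 16) of 1 probe set per gene, and each difference is a difference between group means on that scale, so a difference of 1 is a doubling of a bright signal and an understatement for a dim one. Median intensity ranged from 165 to 212 over the 15 arrays, and correlations between arrays of one group ran from 0.933 to 0.995. The mean of 25 leukocyte markers lay between 6.73 and 7.37 on the embryonic arrays of all 3 kinds, between 7.43 and 8.03 in Sox9-GFP+ cells at p23 and between 10.48 and 10.91 in GFP- cells. Ptprc, which encodes the pan-leukocyte protein CD45, had 14.28, 14.41 and 14.64 on the GFP- arrays, against 8.12, 10.64 and 10.09 on the Sox9-GFP+ arrays of p23. Leukocyte transcripts were thus abundant in the GFP- group. Red cell markers (8 genes) averaged 7.27 to 8.04 on Sox9-GFP+ arrays at e10.5, 6.75 to 7.34 at e15.5 and 6.84 to 7.09 at p23. They averaged 6.98 to 7.21 on Ngn3-GFP+ and 7.08 to 7.22 on GFP- arrays. Of the 7 above the filter, the globin gene Hbb-y was ordered higher and Slc4a1 lower, and the contrast called 0 higher and 2 lower. The part of red cells in the ordering was not tested. Acinar enzyme genes averaged 12.58 to 12.82 in Sox9-GFP+ cells at p23, close below the 13.14 to 13.27 of GFP- cells. Islet hormone genes averaged 8.39 in GFP- cells, level with the 8.41 of Sox9-GFP+ cells at p23, against 12.41 in Ngn3-GFP+ cells. Endocrine transcription factors averaged 6.80, 7.50 and 10.24 in the same order. The endocrine share of the GFP- group was not tested. In whole sorted populations, fewer cells of a type and less RNA per cell cannot be told apart.

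Beyond the ordering, the individual arrays were separated in fewer genes. All 9 Sox9-GFP+ arrays lay above all 6 others in 246 genes (1.46% of those tested) and below all 6 in 61 genes (0.361%). Without Ngn3-GFP+ replicate 1 the higher count was 447, and without Ngn3-GFP+ replicates 1, 2 and 3 in turn the lower count was 103, 94 and 116, as fewer arrays can only add genes. Quantile normalization gave 122 lower genes and median centring 92. Each of the 6 differences between a Sox9-GFP+ group and another group passed limma's test on its own, at an adjusted p of 0.05 over all genes, in 144 genes on the higher side (0.853%) and 24 on the lower (0.142%). The strictest test took the largest of the 6 p-values per gene and adjusted that over all genes. It left 1 higher gene, Grhl2 (0.00592%), and 2 lower genes, Glp1r and Esyt1 (0.0118%). The plain contrast, the mean of the 3 Sox9-GFP+ means minus the mean of the other 2, called 4316 genes higher (25.6%) and 2710 lower (16.1%), and so asks much less than the ordering. Between sorts of the same age, Sox9-GFP+ cells were called above Ngn3-GFP+ cells at e15.5 in 18.4% of genes and below in 23.3%, and above GFP- cells at p23 in 21.5% and below in 14.5%. Counts of calls in the gene lists below are to be read against these shares. Of those contrast calls 61.4% were higher, against 51% after quantile normalization and 45.7% after centring each array on its median, so the balance of higher and lower genes follows the scaling. The array-separated genes shared with those settings numbered 149 of the 246 higher and 47 of the 61 lower under quantile normalization, and 174 and 46 under median centring.

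Sox9 itself, which the sort selected through its transgene, checks the labels. It read 12.12, 11.93 and 11.84 at e10.5, 12.14, 12.10 and 12.11 at e15.5 and 11.62, 11.94 and 12.10 at p23. Ngn3-GFP+ arrays gave 11.21, 10.13 and 11.14, and GFP- arrays gave 10.08, 9.81 and 8.68. The 9 positive arrays lay above the 6 others, with a gap of 0.41 between the lowest positive array, at p23, and the highest Ngn3-GFP+ array. The contrast was 1.82 ± 0.20 (standard error, as for every ± on a difference here; adjusted p = 7.93e-06), and the 3 stage means spanned only 0.23. Neurog3, in contrast, differed by 0.04 ± 0.23 between the e15.5 sorts (adjusted p = 0.911). Its group means were 9.82, 11.87 and 5.15 over the 3 stages, 11.83 for Ngn3-GFP+ and 5.16 for GFP-. The bright Sox9-GFP+ population of e15.5 thus carried as much Neurog3 transcript as its comparison group, and differences at that age are between populations that share it.

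Grhl2 was the only gene on the higher side that passed the strictest test. It encodes grainyhead-like 2, a transcription factor of epithelial cells that maintains their junctions. Its signal was 9.91, 9.93 and 9.83 at e10.5, 10.06, 10.03 and 10.15 at e15.5 and 10.06, 10.04 and 10.13 at p23. The comparison arrays gave 9.29, 8.73 and 9 in Ngn3-GFP+ and 7.72, 7.76 and 7.62 in GFP- cells. The gap between the nearest positive and comparison arrays was 0.54, and the contrast was 1.66 ± 0.08, 3.17-fold on the intensity scale with the offset. The largest of its 6 p-values adjusted to 0.0341, and its stage means of 9.89, 10.08 and 10.07 spanned 0.19 (adjusted p of the stage test = 0.288). The p23 difference of 2.37 ± 0.12 exceeded the e15.5 difference of 1.08 ± 0.12. This strict call was lost when any of 14 of the 15 arrays was left out, all but Ngn3-GFP+ replicate 1, while its contrast stayed called each time.

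**Figure D1:**
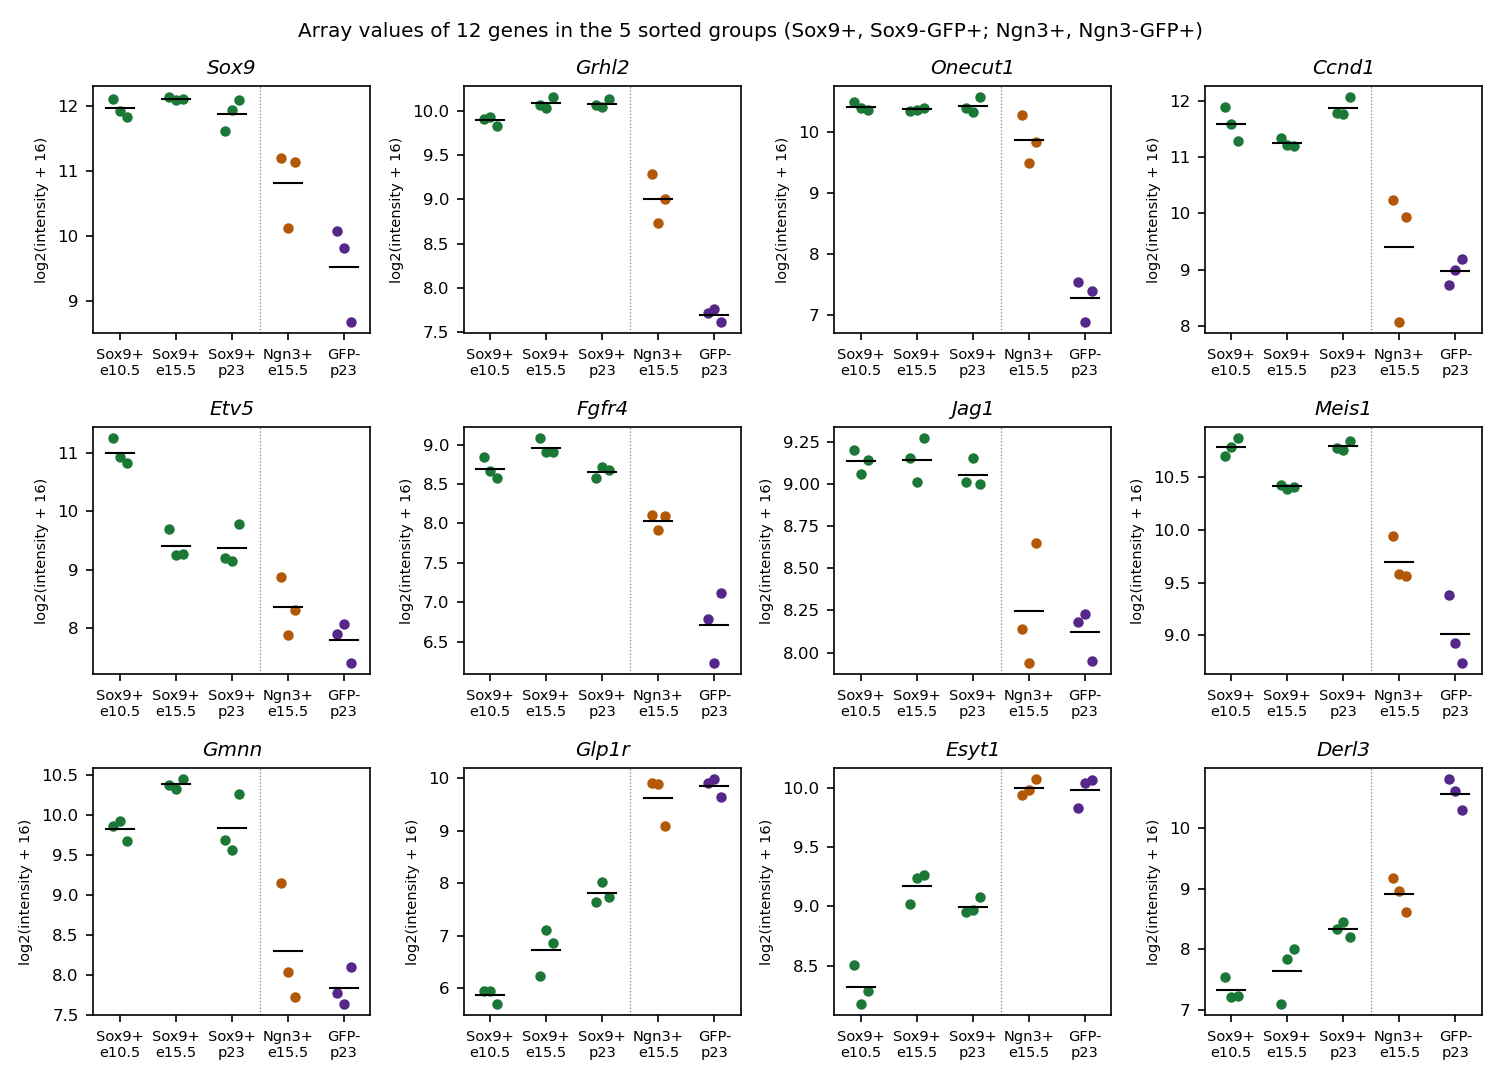
Log2(intensity + 16) of 12 genes on each of the 15 arrays, by sorted group. Points are arrays, black bars are group means of 3 arrays, and the dotted line divides the 3 Sox9-GFP+ groups from the Ngn3-GFP+ and GFP- groups. In the first 9 panels every Sox9-GFP+ array lies above every other array, and in Glp1r, Esyt1 and Derl3 every Sox9-GFP+ array lies below.

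Among 27 regulators of pancreatic progenitors, all above the filter, 6 were ordered on the higher side and none on the lower, and the same 6 were separated array by array. The contrast called 19 of the 27 higher and none lower, with a median contrast of 0.95, beside a median of 0.0063 over all genes. At e15.5 it was 10 called higher and 5 lower than Ngn3-GFP+ cells, and at p23 19 higher and 3 lower than GFP- cells. The 6 were Sox9, Onecut1, Meis1, Tcf7l2, Nr5a2 and Rbpj. Onecut1, which encodes the homeodomain factor HNF6 of the pancreatic bud and ducts, had the flattest profile among the bright genes with a contrast of at least 1. It read 10.49, 10.39 and 10.36 at e10.5, 10.35, 10.36 and 10.40 at e15.5 and 10.39, 10.32 and 10.57 at p23. Ngn3-GFP+ cells had 10.28, 9.49 and 9.83 and GFP- cells 7.55, 6.89 and 7.39. Its stage means lay within 0.05 of each other, while the first Ngn3-GFP+ array came within 0.04 of the lowest positive array. Its difference was 0.50 ± 0.19 at e15.5 (adjusted p = 0.044) and 3.15 ± 0.19 at p23 (adjusted p = 7.9e-09).

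Meis1, a homeodomain cofactor of PBX and HOX proteins, read 10.70, 10.79 and 10.87 at e10.5, 10.43, 10.39 and 10.41 at e15.5 and 10.78, 10.76 and 10.84 at p23. The other groups gave 9.94, 9.58 and 9.56 in Ngn3-GFP+ and 9.38, 8.93 and 8.74 in GFP- cells, and its contrast was 1.31 ± 0.10. Nr5a2, a nuclear receptor of early progenitors that is also used in mature acinar cells, had stage means of 11.01, 11.34 and 10.93 against 10.24 and 9.93. Its differences were 1.1 ± 0.18 at e15.5 and 1 ± 0.18 at p23, and it was the lone higher gene among 29 acinar regulators and secretory machinery genes. Tcf7l2, a nuclear effector of Wnt signalling, averaged 11.59, 11.28 and 11.38 in the positive groups, 10.95 in Ngn3-GFP+ and 9.49 in GFP- cells.

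Best-known progenitor genes outside this set failed the ordering for different reasons. Pdx1, the pancreatic homeobox factor, was as high in Ngn3-GFP+ cells (11.57, 11.99 and 11.99) as in Sox9-GFP+ cells of e15.5 (11.48, 11.47 and 11.38) and had 9.64, 9.92 and 10.16 in Sox9-GFP+ cells at p23. Prox1 averaged 11.40, 11.31 and 11.75 in the positive groups and 11.36 in Ngn3-GFP+ cells, and only the GFP- mean of 7.74 was lower. Hes1, the Notch-driven repressor of Neurog3, rose from 8.50 at e10.5 to 11.39 at p23 and thereby began below the GFP- mean of 9.51. Sox11, another SOX factor, had an e10.5 mean of 14.46 and a p23 mean of 6.91, a change with stage of 7.55. Of 19 SOX family genes, 2 were ordered higher, Sox9 and Sox5, and 2 lower, and of 21 genes known as SOX9 targets in cartilage or testis only Sox5 was ordered higher.

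The receptor tyrosine kinase pathway contributed 11 of 34 measured members on the higher side, 5 of them separated array by array, and none on the lower. The contrast called 22 higher and 2 lower, with a median of 0.82. At p23 23 were called higher and 1 lower than in GFP- cells. At e15.5 only 5 were called higher and 2 lower than in Ngn3-GFP+ cells. Among the receptors, Fgfr4 read 8.84, 8.66 and 8.57 at e10.5, 9.08, 8.90 and 8.91 at e15.5 and 8.57, 8.71 and 8.68 at p23. Ngn3-GFP+ arrays gave 8.10, 7.91 and 8.09 and GFP- arrays 6.78, 6.23 and 7.11, and the contrast was 1.40 ± 0.11. Erbb3, the neuregulin receptor that lacks an active kinase, had means of 9.31, 9.69 and 9.71 against 8.61 and 7.75. The receptor genes Met, Erbb2 and Fgfr1 were ordered with contrasts of 1.44 ± 0.13, 1.22 ± 0.15 and 0.84 ± 0.10, with overlapping arrays.

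Some transcriptional outputs and inhibitors of the same pathway followed, with Il17rd added from outside the list. The list members Fgfr2, Fgfr3, Egfr, Erbb4, Spry1, Spry4, Etv1 and Errfi1 were not among the 11 ordered. Etv5, an ETS factor induced by FGF signalling, read 11.25, 10.93 and 10.82 at e10.5, 9.70, 9.26 and 9.27 at e15.5 and 9.21, 9.15 and 9.78 at p23. The comparison groups had 8.88, 7.88 and 8.32 in Ngn3-GFP+ and 7.90, 8.08 and 7.41 in GFP- cells. Its contrast was 1.85 ± 0.16, yet its level was not constant, since each e10.5 array exceeded each later one by 1.04 or more (stage range 1.62, adjusted p = 0.000114). Spry2 and Spred1, feedback inhibitors of ERK signalling, had contrasts of 1.25 ± 0.26 and 1.03 ± 0.12. The low second Ngn3-GFP+ array carried part of the Spry2 value, as its arrays read 8.50, 6.72 and 8.79. Il17rd, which encodes the FGF antagonist SEF, gave 9.76, 9.93 and 9.65 at e10.5, 8.33, 8.52 and 8.39 at e15.5 and 9.63, 9.76 and 9.88 at p23. Against these, the comparison groups had 7.93, 5.26 and 7.75 in Ngn3-GFP+ and 7.59, 7.39 and 7.64 in GFP- cells. The Il17rd contrast of 2.06 ± 0.31 was 1.27 when all its probe sets were averaged.

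Notch pathway members went both ways. Of 37 measured, 10 were ordered higher and 5 lower, and the contrast called 15 and 6. The same-age counts were 12 higher and 7 lower at e15.5 and 11 and 6 at p23. Jag1, the ligand, read 9.20, 9.06 and 9.14 at e10.5, 9.15, 9.01 and 9.27 at e15.5 and 9.01, 9.15 and 9 at p23. Ngn3-GFP+ arrays gave 8.14, 7.94 and 8.65 and GFP- arrays 8.18, 8.23 and 7.95. Its stage means were within 0.09 of each other, its contrast was 0.93 ± 0.10, and its differences were 0.90 ± 0.16 at e15.5 and 0.93 ± 0.16 at p23. Rbpj, the DNA-binding partner of the cleaved receptors, had means of 10.57, 10.52 and 10.42 against 10.08 and 9.85, and its contrast of 0.55 ± 0.07 came to 0.21 with all probe sets averaged. Hey1, a Notch target, was separated at 9.95, 9.09 and 9.29 against 8.19 and 8.46, with a higher level at e10.5 (stage test adjusted p = 0.0083). Id2, an inhibitor of basic helix-loop-helix factors, was highest at e10.5 (11.24) and, unlike most of the set, lower in Ngn3-GFP+ (9.79) than in GFP- cells (10.51). The receptors Notch1 and Notch2 and the target Nrarp were ordered higher with contrasts of 0.59 ± 0.08, 0.77 ± 0.13 and 1.67 ± 0.13. On the lower side Psen2, a catalytic subunit of gamma-secretase, was separated with a contrast of -0.58 ± 0.08.

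Other signalling lists held fewer separated genes. Of 51 Wnt pathway genes, 13 were ordered higher and 1 lower, with Lgr4, the R-spondin receptor, and Tcf7l2 separated. At e15.5 the list had 8 genes called higher and 12 lower, and at p23 28 higher and 1 lower. Lgr4 averaged 9.85, 10.05 and 9.88 against 9.18 and 9.01, and its contrast was 0.83 ± 0.14. Of 42 genes of the TGF-beta and BMP pathway, 9 were ordered higher, including Smad2, Smad3, Smad4 and Smad5, and the ligand gene Bmp5 was ordered lower. The contrast called 21 of the 42 higher and 6 lower, with 6 higher and 10 lower at e15.5 and 21 higher and 7 lower at p23. Smad5 was separated by a contrast of 0.41 ± 0.07. Of 30 genes of the YAP and TEAD pathway, 11 were ordered higher and 1 lower, and the same-age calls were 8 higher and 2 lower at e15.5 and 21 and 3 at p23. These included the coactivator gene Yap1 (0.71 ± 0.16) and the DNA-binding partners Tead1, Tead3 and Tead4 (0.95 ± 0.12, 1.25 ± 0.18 and 0.52 ± 0.08). Tead1 alone of them was separated, with positive arrays from 10.92 to 11.21 and a highest Ngn3-GFP+ array of 10.92. Smo, the transducer of hedgehog signals, and Rarb, a retinoic acid receptor, were in no list and were picked out after their values were seen. Smo averaged 9.04, 9.01 and 8.71 against 8.30 and 7.03. Rarb averaged 8.23, 7.11 and 8.98 against 6.26 and 6.70, with a stage range of 1.87 that was wider than its contrast of 1.62 ± 0.12.

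**Figure D2:**
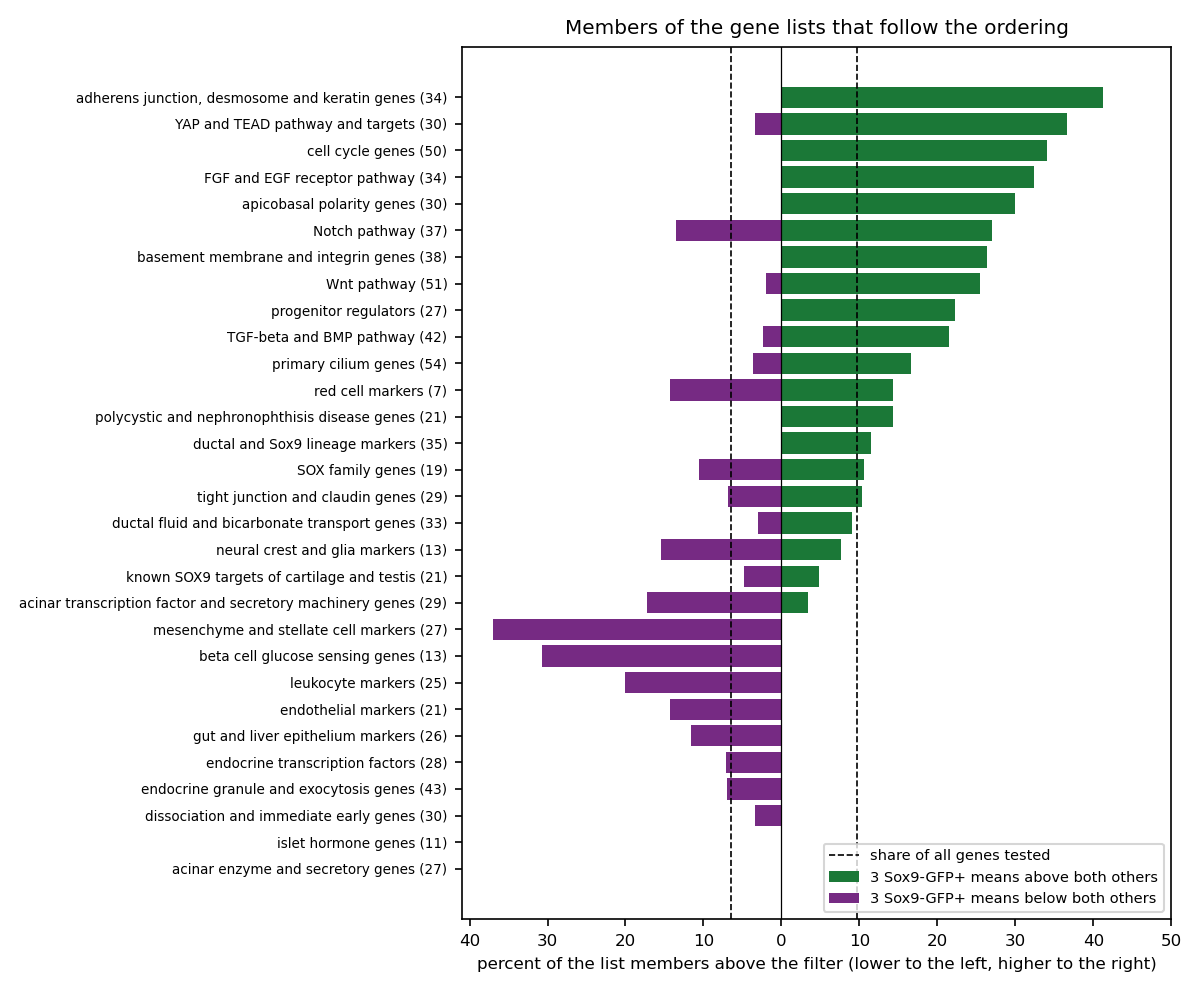
Percent of each gene list whose 3 Sox9-GFP+ group means lie above both other means (green, to the right) or below both (purple, to the left), with the number of members above the filter in brackets. Dashed lines mark 9.63% and 6.47%, the shares over all genes tested. Adherens junction, desmosome and keratin genes reach furthest to the right with 14 of 34, and mesenchyme markers furthest to the left with 10 of 27.

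Cell cycle genes were higher in the contrast almost throughout, but with a level that changed with stage. Of 50, the contrast called 46 higher and none lower, 17 were ordered and 4 were separated (Mcm3, Pcna, Pola1 and Prim1, all of DNA replication). At e15.5 48 were called higher than in Ngn3-GFP+ cells and none lower, and at p23 13 were called higher than in GFP- cells and 3 lower. The mean of the list ran from 9.97 to 10.19 at e10.5, from 10.22 to 10.41 at e15.5 and from 8.77 to 9.22 in Sox9-GFP+ cells at p23. Ngn3-GFP+ arrays lay at 8.73 to 9.25 and GFP- arrays at 8.46 to 8.86, so the p23 positive cells overlapped the Ngn3-GFP+ cells. A pair of cell cycle regulators outside the list held their level better than the list, and both were among the largest differences. Ccnd1, cyclin D1, read 11.88, 11.59 and 11.29 at e10.5, 11.33, 11.22 and 11.20 at e15.5 and 11.78, 11.76 and 12.06 at p23. The comparison arrays had 10.24, 8.08 and 9.93 in Ngn3-GFP+ and 8.73, 9 and 9.19 in GFP- cells. Its contrast was 2.37 ± 0.25 (adjusted p = 4.33e-06), 5.19-fold, with a p23 difference of 2.89 ± 0.39. Gmnn, geminin, a brake on relicensing of replication origins, read 9.86, 9.93 and 9.68 at e10.5, 10.38, 10.33 and 10.45 at e15.5 and 9.69, 9.56 and 10.27 at p23. The other arrays gave 9.15, 8.04 and 7.73 in Ngn3-GFP+ and 7.77, 7.64 and 8.10 in GFP- cells. Its differences were 2.08 ± 0.28 at e15.5 and 2.01 ± 0.28 at p23. Wee1, a kinase that delays mitosis, named after its value was seen, and Mcm3, a helicase subunit, were separated with contrasts of 1.34 ± 0.20 and 1.02 ± 0.13.

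Promoters of 200 of the 246 separated higher genes and 49 of the 61 lower genes were found in the RefSeq table (build GRCm38.p6), in windows of 300 bases that span the gene start. They are shown because the separated set holds genes of DNA replication. The E2F motif TTTCCCGC, on either strand, was present in 11 of the 200 (5.5%), against 1.78% of all 13292 matched promoters and 1 of the 49 lower genes (2.04%). A second E2F motif, TTTGGCGC, was in 2 of the 200 (1.0%) and in 0.858% of all, so the shares differed little. These were among 19 motifs searched, all chosen after the values were seen, and a match is a description of letters only. The stretches round the first motif in Bard1, a partner of BRCA1, and Dsn1, a kinetochore subunit, both picked after their values were seen, follow 5′ to 3′ on the gene's strand, with the motif in capitals. Bard1 lies on the minus strand and its stretch is chr1:71103144-71103211. The Dsn1 stretch, also on the minus strand, is chr2:157007242-157007309.
Bard1: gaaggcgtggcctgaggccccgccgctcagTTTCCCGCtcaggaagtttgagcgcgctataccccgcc
Dsn1: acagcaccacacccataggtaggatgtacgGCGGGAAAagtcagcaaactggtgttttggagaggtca
Bard1 read 8.71, 8.68 and 8.38 at e10.5, 8.70, 8.38 and 8.62 at e15.5 and 8.46, 8.37 and 8.44 at p23, against 8.22, 7.79 and 7.85 in Ngn3-GFP+ and 7.98, 7.77 and 8.11 in GFP- cells. Dsn1 averaged 8.40, 8.70 and 7.94 against 7.44 and 7.43. The SOX motif ACAATG, in contrast, was in 7.0% of the higher genes' windows and 8.56% of all windows.

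Structural genes of epithelium had the largest share of ordered members. Of 34 genes of adherens junctions, desmosomes and keratin filaments, 14 were ordered higher and none lower, 3 were separated and the contrast called 25 higher and none lower (median 0.77). At e15.5 9 were called higher and 2 lower, and at p23 27 higher and 1 lower. The separated genes were Grhl2, Ctnna1 and Afdn. Ctnna1, alpha-catenin, which ties cadherins to actin, read 10.78, 10.60 and 10.49 at e10.5, 10.63, 10.56 and 10.66 at e15.5 and 11.22, 11.49 and 11.47 at p23. Against these it was 10.37, 9.89 and 10.30 in Ngn3-GFP+ and 9.69, 9.51 and 9.46 in GFP- cells. Its p23 level exceeded both embryonic stages on every array (stage range 0.77, adjusted p = 0.000357). Afdn, afadin, averaged 11.44, 11 and 11.25 against 10.60 and 9.08. Ctnnb1, Ctnnd1, Dsp, Dsg2, Cdh3, Cdh6 and Epcam were ordered too, and Epcam, the surface marker of epithelium, differed from Ngn3-GFP+ cells by little (0.11 ± 0.11, adjusted p = 0.422) and from GFP- cells by 1.54 ± 0.11.

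Polarity and basement membrane genes gave 9 of 30 and 10 of 38 ordered higher and none ordered lower. Tight junction genes gave 3 of 29 ordered higher, a share near that of all genes, and 2 ordered lower, the claudins Cldn5 and Cldn18. Mpp5, the PALS1 scaffold of the Crumbs complex, was separated with means of 10.78, 10.68 and 10.98 against 10.33 and 10.39. Marveld2, tricellulin, which seals the corners where cells meet, averaged 10.51, 10.51 and 10.72 against 10.14 and 8.83. For it the e15.5 difference was 0.38 ± 0.16 (adjusted p = 0.0704) and the p23 difference 1.90 ± 0.16. In the basement membrane list Agrn, the proteoglycan agrin, Egflam, the secreted protein pikachurin, and Itga5, the fibronectin receptor subunit, were separated. Their contrasts were 1.40 ± 0.11, 1.28 ± 0.09 and 0.78 ± 0.08. Itga5 and Egflam were highest at p23 on every array. Fermt1, kindlin-1, which activates integrins, averaged 9.39, 9.33 and 9.89 against 8.33 and 7.27, a contrast of 1.73 ± 0.13.

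Pancreatic progenitors and duct cells bear a primary cilium. Of 54 cilium genes, 9 were ordered higher and 2 lower, 3 were separated and the contrast called 36 higher and 1 lower. The share ordered higher was above that of all genes, but the contrast calls came mainly from GFP- cells, with 38 higher and 1 lower at p23 and 6 higher and 4 lower at e15.5. The mean of the cilium list was 8.84, 8.93 and 8.84 in the Sox9-GFP+ groups, 8.92 in Ngn3-GFP+ and 7.84 in GFP- cells, so Ngn3-GFP+ cells were level with the positive groups. Kif3a, a motor subunit of intraflagellar transport, read 10.33, 10.52 and 10.43 at e10.5, 10.33, 10.41 and 10.43 at e15.5 and 10.33, 10.24 and 10.62 at p23. It read 10.02, 10.10 and 9.86 in Ngn3-GFP+ and 9.08, 9.48 and 9.06 in GFP- cells, and its stage means spanned 0.04. Rpgrip1l, of the ciliary transition zone, averaged 8.78, 9 and 8.88 against 8.39 and 6.42. Ift43, of the retrograde transport complex, averaged 9.97, 10.01 and 10.67 against 9.43 and 7.91, and was highest at p23. In all 3 the GFP- cells were the lower comparison group, with p23 differences of 1.19 ± 0.13, 2.45 ± 0.18 and 2.76 ± 0.15. Outside that list, Mak, a kinase that limits cilium length in photoreceptors, and the centrosomal genes Ninl, Cep112 and Ccdc18 were separated with contrasts of 1.97 ± 0.26, 1.73 ± 0.10, 1.69 ± 0.10 and 1.53 ± 0.13. The Cep112 difference was 3.28 ± 0.16 at p23, while at e15.5 it was 0.26 ± 0.16 (adjusted p = 0.183).

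The largest contrast of all separated higher genes was that of Capn6, a calpain family protein without protease activity. Its arrays read 10.72, 10.68 and 10.34 at e10.5, 10.52, 10.52 and 10.69 at e15.5 and 9.97, 10.17 and 10.32 at p23. The comparison arrays read 9.74, 8.08 and 9.10 in Ngn3-GFP+ and 6.77, 7.35 and 5.88 in GFP- cells. The contrast was 2.62 ± 0.24 (adjusted p = 9.15e-07), 6.14-fold, with every positive array above the highest Ngn3-GFP+ array of 9.74. Efna5, the ligand ephrin-A5, came next with a contrast of 2.52 and means of 9.59, 8.68 and 10.10 against 6.93 and 6.95, and its Ngn3-GFP+ arrays were 7.93, 4.49 and 8.36, of which the second was far lower. Flrt3, a membrane protein that binds FGF receptors and unc5 receptors, averaged 9.21, 7.81 and 9.59 against 7.08 and 6.63, with the e15.5 positive cells the lowest of the 3 stages. Gsta4, a glutathione transferase that clears lipid aldehydes, averaged 11.41, 11.46 and 11.90 against 10.26 and 9.09. Fam83b, a scaffold of ERK signalling, was flat at 9.82, 9.88 and 10.13 against 8.59 and 7.59. The genes Ankrd45, Ccnjl, Dcbld1, Pkia and Rnf152 were separated with contrasts between 1.75 and 2.11. Of these Pkia, an inhibitor of protein kinase A, was highest at p23 on every array, with stage means of 8.37, 8.74 and 9.38. Cnn3, the actin-binding protein calponin 3, and Ubtd2 belonged to the flattest genes, with stage ranges of 0.26 and 0.29 and contrasts of 1.15 ± 0.09 and 1.19 ± 0.07.

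Some genes of sterol synthesis and transport were also separated. They were picked out after their values were seen, and no list of such genes was tested. Hmgcs1, which makes the precursor of mevalonate, read 10.64, 10.75 and 10.40 at e10.5, 10.12, 10.19 and 10.32 at e15.5 and 11.15, 11.08 and 10.90 at p23. Levels were 9.64, 9.79 and 9.81 in Ngn3-GFP+ and 9.73, 9.88 and 9.66 in GFP- cells. Nsdhl, an enzyme late in cholesterol synthesis, was flat at 9.89, 10.05 and 10.03 against 9.33 and 9.32. Idi1, Hsd17b7 and Npc1, the last a lysosomal cholesterol exporter, had contrasts of 0.66 ± 0.11, 0.87 ± 0.14 and 0.84 ± 0.07. The means of Ngn3-GFP+ and GFP- cells were at most 0.09 apart in Hmgcs1, Nsdhl and Npc1, and the positive arrays lay above both.

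Markers of mature ducts were ordered about as often as all genes and changed with stage. Of 35 ductal markers, 4 were ordered higher (Epcam, Wfdc2, Prom1 and Kcnj16), none was separated, and the contrast called 19 higher and 3 lower. A moderated F test over the 3 stage means called 34 of the 35, against 66.2% of all genes. Krt19, a keratin of ducts, read 9.51, 9.03 and 8.67 at e10.5, 9.59, 10.01 and 10.28 at e15.5 and 11.80, 12.02 and 11.92 at p23, against 9.94, 9.53 and 10.13 in Ngn3-GFP+ cells. Cftr, the chloride channel of duct fluid secretion, averaged 5.43 at e10.5 and 9.98 at p23. Wfdc2, a secreted protease inhibitor, was the ordered marker with the largest contrast, 2.68 ± 0.16, at 10.58, 11.44 and 10.55 against 9.78 and 6.6. Its lowest positive array, at 10, lay just under the highest Ngn3-GFP+ array at 10.02. Of 33 genes of ductal ion transport, 3 were ordered higher and 1 lower.

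On the lower side Glp1r had the largest contrast of all separated genes. It encodes the receptor for the incretin hormone GLP-1, best known in beta cells. Its arrays read 5.95, 5.94 and 5.70 at e10.5, 6.23, 7.10 and 6.85 at e15.5 and 7.64, 8.03 and 7.74 at p23. Ngn3-GFP+ cells had 9.90, 9.89 and 9.08 and GFP- cells 9.90, 9.98 and 9.65. The contrast was -2.94 ± 0.15, so the other groups had 7.65-fold the Sox9-GFP+ signal, and the largest of the 6 p-values adjusted to 0.0314. That strict call was lost without any of 9 of the 15 arrays. The level was low but not constant, since it was higher at each later stage (means 5.86, 6.73 and 7.80, stage test adjusted p = 3.83e-05). Esyt1, a tether between endoplasmic reticulum and plasma membrane, read 8.51, 8.18 and 8.29 at e10.5, 9.02, 9.24 and 9.26 at e15.5 and 8.95, 8.97 and 9.08 at p23. It read 9.94, 9.98 and 10.07 in Ngn3-GFP+ and 9.83, 10.04 and 10.06 in GFP- cells. The comparison means were 9.99 and 9.98, the contrast was -1.16 ± 0.07 (strict adjusted p = 0.0341, lost without any of 13 arrays), and the e10.5 arrays were the lowest (stage test adjusted p = 7.41e-05). Besides Glp1r, the beta cell sensing list of 13 genes had Ero1b, Ffar1 and Ucn3 ordered lower, with contrasts of -2.15 ± 0.21, -0.49 ± 0.10 and -0.51 ± 0.09, and 12 of its 13 genes were called lower in Sox9-GFP+ than in Ngn3-GFP+ cells at e15.5, against 23.3% of all genes. At p23 only 2 were called lower than in GFP- cells and 1 higher. Other endocrine lists had few ordered members. Of 11 islet hormone genes none was ordered, and the contrast called 0 higher and 5 lower. Of 43 granule and exocytosis genes 3 were ordered lower, near the share of all genes, and the contrast called 6 higher and 13 lower. Of 28 endocrine transcription factors 2 were ordered lower, but the contrast called 15 higher and 1 lower. At e15.5 these lists had 6, 26 and 11 genes called lower than in Ngn3-GFP+ cells and 0, 3 and 0 called higher. At p23 they had 3, 10 and 0 called lower than in GFP- cells and 0, 4 and 13 called higher.

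Several of the 61 separated lower genes encode components of the endoplasmic reticulum. Derl3, Creld2 and Ssr4 met the rule for named genes, while Syvn1 and Uggt1 were picked out after their values were seen. No list of such genes alone was tested. Derl3, which serves degradation of misfolded proteins from that compartment, read 7.54, 7.22 and 7.23 at e10.5, 7.10, 7.84 and 8 at e15.5 and 8.33, 8.45 and 8.20 at p23. The comparison arrays had 9.17, 8.97 and 8.62 in Ngn3-GFP+ and 10.81, 10.61 and 10.30 in GFP- cells. The contrast was -1.98 ± 0.14 (adjusted p = 7.88e-08), with the GFP- arrays highest and stage means of 7.33, 7.65 and 8.33. Creld2, a stress-induced protein of the same compartment, averaged 10.43, 10.89 and 10.46 against 11.53 and 11.82. Syvn1, the ubiquitin ligase HRD1, averaged 9.64, 9.94 and 9.49 against 10.24 and 10.89. The translocon subunit gene Ssr4 and the folding sensor gene Uggt1 were separated with contrasts of -1.12 ± 0.11 and -0.64 ± 0.08. The list of 29 acinar regulators and secretory machinery genes includes many genes of the endoplasmic reticulum. In it 5 were ordered lower (Rab3d, Tram1, Pdia6, Hspa5 and Hsp90b1), none was separated lower, and the contrast called 20 lower and 1 higher. At p23 18 were called lower and 2 higher than in GFP- cells. At e15.5 1 was called lower and 8 higher than in Ngn3-GFP+ cells. The list mean was 9.09 at e10.5, 10.11 at e15.5 and 10.13 at p23 in Sox9-GFP+ cells. It was 9.71 in Ngn3-GFP+ and 10.92 in GFP- cells, and the contrast takes in the low e10.5 level as well. The acinar enzyme list itself had no ordered member of 27, although the contrast called 24 lower. Its same-age calls were 8 higher and 1 lower at e15.5 and 5 lower at p23. Its mean went from 6.41 to 6.43 on the e10.5 arrays up to 12.58 to 12.82 in Sox9-GFP+ cells at p23.

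The promoters of Derl3, Creld2 and Syvn1 share the ER stress element, CCAAT and CCACG 9 bases apart on either strand. It was found in 3 of 49 lower genes (6.12%), in none of the 200 higher genes and in 20 of all 13292 promoters (0.15%). It was 1 of the 19 motifs chosen after the values were seen, and a match describes letters only. The XBP1 motif TGACGTGG was in 0 of the 49 lower genes, 2 of the 200 higher genes (1.0%) and 0.858% of all. The stretches follow with the element in capitals, on the plus strand of GRCm38.p6 in each case. Creld2 is chr15:88819490-88819568, Derl3 is chr10:75893212-75893290 and Syvn1 is chr19:6046502-6046580. Creld2 and Derl3 hold the element in the reverse orientation.
Creld2: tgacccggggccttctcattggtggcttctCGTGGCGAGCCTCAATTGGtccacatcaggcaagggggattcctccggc
Derl3: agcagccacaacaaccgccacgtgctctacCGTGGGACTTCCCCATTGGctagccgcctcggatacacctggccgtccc
Syvn1: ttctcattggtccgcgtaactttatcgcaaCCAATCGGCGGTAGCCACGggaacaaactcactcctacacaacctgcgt
These 3 genes were lower in all 9 positive arrays, with e15.5 differences of -0.63 ± 0.20, -1.27 ± 0.22 and -0.30 ± 0.16. At p23 their differences were -1.36 ± 0.20, -2.25 ± 0.22 and -1.39 ± 0.16.

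Other lower genes are ones that leukocytes use, and their GFP- values were high where the leukocyte markers were. Gpr132, a receptor of lymphocytes and macrophages, averaged 7.62, 7.2 and 7.69 in the positive groups, 7.81 in Ngn3-GFP+ and 10.34 in GFP- cells. Selplg, the P-selectin ligand, averaged 8.53, 8.07 and 8.56, 8.75 and 10.60 in the same order, and Fmnl1, a formin of blood cells, 6.94, 6.97 and 6.87, 7.45 and 9.19. In C1qc, a complement subunit of macrophages, the means were 6.64, 6.49 and 6.95, 7.34 and 8.12. All 4 were separated, and the GFP- arrays had the leukocyte marker means of 10.48 to 10.91 given above, with 22 of the 25 markers called lower in Sox9-GFP+ than in GFP- cells at p23, against 14.5% of all genes. The part of those cells in these 4 genes was not tested. Of the 25 leukocyte markers 5 were ordered lower and none was separated. The marker mean of the Ngn3-GFP+ arrays, 6.88 to 7.37, lay slightly above the 6.78 to 6.83 of the Sox9-GFP+ arrays of e15.5. It overlapped that of the e10.5 arrays. At e15.5, 9 of the 25 markers were called lower in Sox9-GFP+ than in Ngn3-GFP+ cells and 1 higher. The shares of all genes were 23.3% lower and 18.4% higher.

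A pair of protein kinase C genes was separated on the lower side. Prkcb, the beta isoform, had the widest change with stage, with arrays of 7.82, 7.68 and 7.84 at e10.5, 8.94, 9.06 and 8.91 at e15.5 and 5.83, 6.73 and 6.30 at p23. The other arrays had 9.29, 9.09 and 9.16 in Ngn3-GFP+ and 9.77, 9.76 and 10.33 in GFP- cells. At e15.5 its difference was -0.21 ± 0.20 (adjusted p = 0.405), so its place rests on e10.5 and p23. Prkce, the epsilon isoform, averaged 7.30, 8.39 and 8.13 against 9.08 and 8.96, and both same-age differences were called. Foxo1, a transcription factor restrained by insulin signalling, and Ripply3, a partner of T-box factors, both picked out after their values were seen, were lower by contrasts of -0.98 ± 0.08 and -0.52 ± 0.08, and Ripply3 was the flattest of these with a stage range of 0.07. Cyfip2, Ttc39b, Plpp5, Slc9a7 and Usp18 were separated with contrasts between -1.42 and -1.04. Mesenchyme markers included 10 of 27 ordered lower, mostly collagens, none of them separated. The contrast called 2 of these markers higher and 15 lower. Same-age calls of the markers were 1 higher and 9 lower at e15.5, and 3 higher and 10 lower at p23. Their list means were 7.88 to 8.36 in the positive groups, 7.98 to 8.54 in Ngn3-GFP+ and 8.66 to 8.85 in GFP- cells.

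The ordering does not ask for equal stage means, but it uses them, and it favours a narrow spread because the stage nearest to the other groups still has to clear both. The stage values here are therefore a description of the chosen genes and no test of their constancy. The moderated F test over the 3 Sox9-GFP+ means called 81 of the 246 separated higher genes (32.9%) and 34 of the 61 lower (55.7%), against 66.2% of all genes. The 95% intervals of all 3 stage differences stayed within 1 in 172 of the higher genes (69.9%) and 46 of the lower (75.4%), against 59.5% of all genes. Wide separation and steadiness were thus not the same property, and 25 of the higher genes had neither a stage call nor intervals that narrow. The median stage range was 0.35 in the higher genes, beside a median contrast of 0.89, and 0.44 in the lower genes, beside -0.72. Over all genes the median stage range was 0.55, a difference that the choice of genes itself favours. The stage with the highest mean was e10.5 in 81, e15.5 in 60 and p23 in 105 of the higher genes. Over all 16883 genes it was e10.5 in 5033, e15.5 in 5159 and p23 in 6691, so p23 led there too. Among the lower genes it was e15.5 in 39 of 61, beside 5159 of all 16883.

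**Figure D3:**
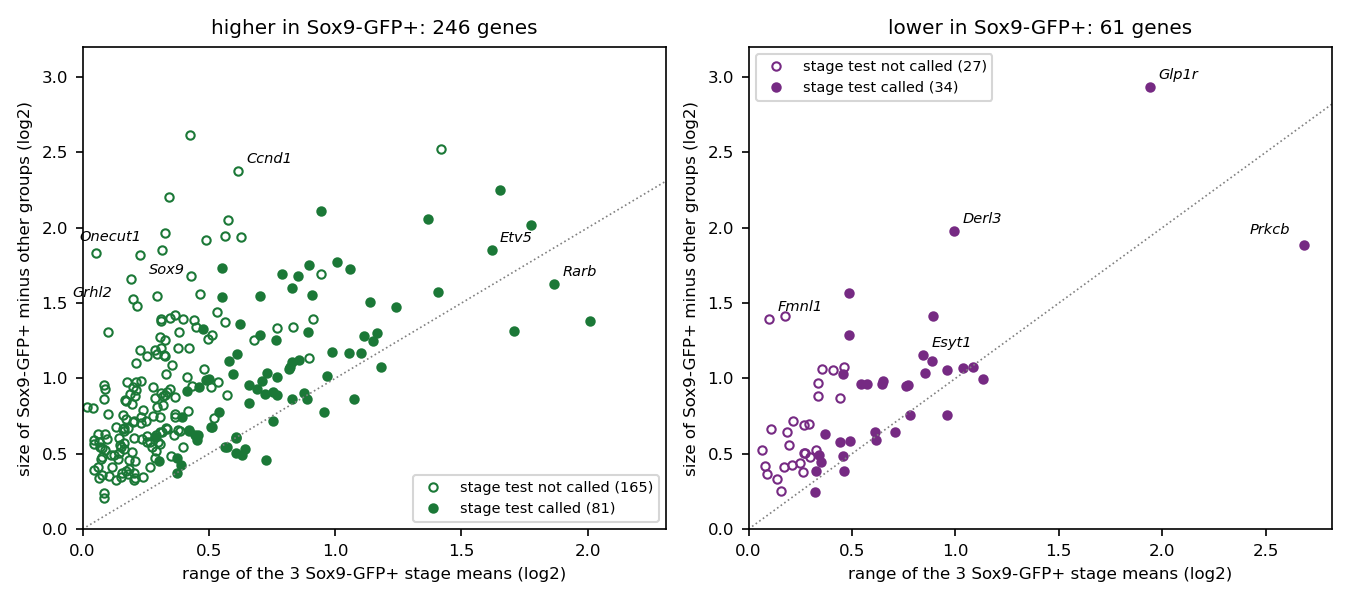
Range of the 3 Sox9-GFP+ stage means (x axis, log2) against the size of the contrast between Sox9-GFP+ and other groups (y axis, log2) for the 246 separated higher genes (left) and the 61 lower genes (right). Filled points passed the stage test, open points did not, and the dotted line marks equal values. Sox9, Grhl2 and Onecut1 lie at the left edge, Rarb lies below the line and Prkcb has the widest stage range of the lower genes.

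The comparison at e15.5 and that at p23 share no arrays. The median difference in the 246 higher genes was 0.63 at e15.5 and 0.93 at p23, and the median in the 61 lower genes was -0.46 and -0.91. The 2 differences were unequal in 107 of the 246 (43.5%) and 25 of the 61 (41.0%), by limma's test at an adjusted p of 0.05, which is no more often than the 45.3% of all genes. Age and the kind of comparison cell change together here and cannot be told apart. The place of Ngn3-GFP+ cells is given as a description, since the ordering used the same means. They had a higher mean than GFP- cells in 184 of the 246 higher genes (74.8%, against 59.3% of all genes), with 89 called above (27.1% of all genes) and 9 called below (17.5%). In the lower genes their mean was under that of GFP- cells in 43 of 61 (70.5%), with 18 called and none called the other way.

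**Figure D4:**
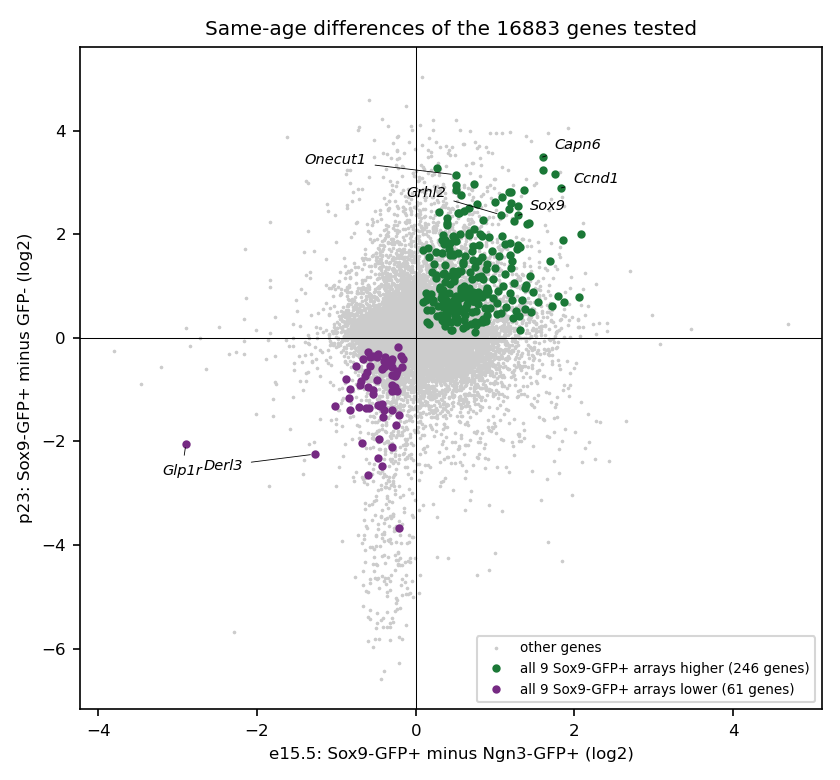
Difference of Sox9-GFP+ and Ngn3-GFP+ means at e15.5 (x axis, log2) against difference of Sox9-GFP+ and GFP- means at p23 (y axis, log2), 1 point per gene tested. Genes whose 9 Sox9-GFP+ arrays lie above all 6 others are green and those below are purple. Onecut1 lies high on the p23 axis with a small e15.5 difference, Glp1r is far to the left, and both colours keep to their own quadrant, as their choice requires.

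The edge of the ordering is sharp only in name. Anapc7, a subunit of the anaphase-promoting complex, is just inside on the higher side with its nearest group means 0.0003 apart, and Taf8, a subunit of the general transcription factor TFIID, is just outside by 0.0002. On the lower side Pitpnm2 is inside by 0.0001 and Ube2d3, a ubiquitin-conjugating enzyme, outside by 0.0001. Probe sets outside the single-gene table gave fewer separated profiles. Of 1223 naming several genes, 8 were higher (0.654%) and 3 lower, and of 8399 naming no gene, 28 were higher (0.333%) and 14 lower.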

How the data were processed

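Total RNA of sorted cells, amplified with the NuGEN Ovation system, was hybridised to 15 Affymetrix arrays of 35557 probe sets, 3 in each of 5 groups. The deposited values are linear probe set intensity. Per the submitters' processing notes, the authors ran PLIER through Affymetrix Expression Console 1.1. No source used here says how arrays were scaled to each other. Labels do not say whether the 3 arrays of a group are separate pools of animals, so p-values measure only the spread between these samples, and their number limits the precision.

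From these intensities, log2(intensity + 16) was computed. The 21789 probe sets naming 1 gene in the platform annotation were reduced to the one with the highest mean per gene (19938 genes). The 1621 naming several genes and 12147 naming none entered no test. Genes above an intensity of 97.8, the 30th percentile of all values, on at least 3 arrays were kept (16883). All 5 group means were fitted in limma 3.58.1 under R 4.3.3 (lmFit, eBayes), with Benjamini-Hochberg adjustment over all genes kept and a threshold of 0.05. Summaries and figures used Python 3.11.15 with pandas 2.3.3 and matplotlib 3.10.9. Scripts were tested on simulated data.

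Genes were named by a rule: Sox9 and Neurog3, genes passing the strict test, the largest and the flattest of them, and list members. The strict test passed 3 genes, so after the values were seen the rule was applied to array-separated genes that the contrast called (70 genes in all). Other list members were named with their values after these were seen, and genes outside the lists are marked so where they appear. The members and the 30 gene lists were chosen with earlier results of these data known. Replicate numbers do not pair the arrays: over 30 same-number pairs of groups, correlations of deviations ran from -0.487 to 0.198, and 3 exceeded 0.1. Motifs were searched in RefSeq promoters (GRCm38.p6), whose table lacks some genes. Alternatives covered offset, scaling, filter, probe set rule, variance model, replicate block, thresholds and leaving out arrays.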

Additional observations from a re-analysis of the deposited data

Results flagged for a closer look

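The difference between Sox9-GFP+ and comparison cells was unequal at e15.5 and p23, by limma's test at an adjusted p of 0.05, in 42 of the 70 named genes (60.0%), against 45.3% of all genes. Most of the named genes were chosen for large differences, so that share is a description. The values here are the e15.5 difference minus the p23 difference, in log2. The comparison cells were Ngn3-GFP+ at e15.5 and GFP- at p23, so age and comparison population cannot be told apart.

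In most of the genes higher in Sox9-GFP+ cells the p23 difference was the larger. The widest values were those of Cep112 -3.02, Onecut1 -2.65, Rnf152 -2.44, Ninl -2.34, Flrt3 -2.22, Ift43 -2.19, Egflam -1.91 and Capn6 -1.89. Next came Agrn -1.87, Rpgrip1l -1.85, Afdn -1.78, Pkia -1.65, Ubtd2 -1.65, Ccnjl -1.62, Fermt1 -1.61 and Gsta4 -1.60. Values closer to equality were found for Tcf7l2 -1.56, Marveld2 -1.52, Cnn3 -1.45, Ctnna1 -1.41, Ankrd45 -1.31, Tead1 -1.31, Grhl2 -1.30 and Fam83b -1.25. The narrowest were Spred1 -1.13, Meis1 -1.06, Fgfr4 -1.01, Erbb3 -0.87, Kif3a -0.80, Itga5 -0.78, Pola1 -0.73 and Smad5 -0.60. Mcm3, with 0.96, had the larger difference at e15.5.

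In genes lower in Sox9-GFP+ cells a positive value means a deeper deficit at p23. The values were Prkcb 3.46, Gpr132 2.04, Fmnl1 1.84, Usp18 1.81, Cyfip2 1.5, Selplg 1.36, Ssr4 1.28 and Derl3 0.97. Glp1r, with -0.86, had the deeper deficit at e15.5. The leukocyte marker means of 10.48 to 10.91 in GFP- cells stand beside the values of Gpr132, Selplg and Fmnl1, and their part in them was not tested.

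Among probe sets outside the tests, all 9 Sox9-GFP+ arrays lay above the other 6 in 8 that name several genes and in 28 that name none.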

How the results depend on the processing

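The strict test passed 1 higher and 2 lower genes, of which 2 changed with stage and 1 had narrow stage intervals, and these counts were the least stable. With an offset of 64 they became 3 higher and 4 with narrow intervals. Quantile normalization gave 2 with narrow intervals, and median centring gave 1 lower gene and 1 with a stage call. A trended, robust variance gave 0 higher, 1 lower, 1 stage call and 0 narrow. Array weights, and an adjusted p of 0.01, gave 0 for all 4 counts. The replicate block, for numbers that do not pair the arrays, gave 0 higher, 1 lower, 1 stage call and 0 narrow, with 6511 genes called by the contrast against 7026. Requiring all 6 differences to be at least 1 gave 0 and 1. Array separation counts 246 and 61, and calling each of the 6 differences on its own, a setting added after the values were seen, 144 and 24. Leaving out single arrays gave 0 to 13 higher (13 without Ngn3-GFP+ replicate 1), 0 to 2 lower, 0 to 10 stage calls and 0 to 11 narrow, with the contrast calling 6066 to 7310. A fit of 9 against 6 arrays in 2 groups called 1190.

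Array separation depends less on the model. It found 249 to 447 higher and 65 to 116 lower genes when 1 array was left out, where fewer arrays can only add genes. The extremes came from Ngn3-GFP+ arrays, with 447 higher without replicate 1 and 103, 94 and 116 lower without replicates 1, 2 and 3. Quantile normalization gave 122 lower and median centring 92. Further settings were added after the values were seen. Without the 3 embryonic arrays with Hbb-y above 9, blood-derived globin signal, the strict test gave 0 for all 4 counts and the contrast called 4622. Leaving out the Sox9-GFP+ p23 arrays with Ptprc above 10 left 1 array in that group, so counts of that setting are not given. The part of leukocyte signal was not tested by it.

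Of 1890 repeats of the contrast of 70 named genes over 27 settings, 1883 kept direction and call. The 7 that lost the call were all Neurog3, and none reversed. The other named genes had separated arrays and a called contrast in these same data. Leaving out an array cannot undo that separation, so the count was largely set by the choice of genes and is no test of it. The scale between arrays is unknown, and each group had 3 arrays, which limits the strict test.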
